A study of Rattus norvegicus with 10 samples.

Results

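The genes described here are the activin ligands, receptors and follistatins, 9 genes chosen by name from the 14354 genes of the count table. They are the activin subunit genes Inhba and Inhbb, the type I receptor genes Acvr1, Acvr1b and Acvr1c, the type II receptor genes Acvr2a and Acvr2b, and the genes of the secreted binding proteins Fst and Fstl1. RNA was sequenced from mixed neuron and glia cultures of the hippocampus of Sprague-Dawley rat embryos, dissected on embryonic day 18. Cultures received 1 µM tetrodotoxin (TTX), which blocks voltage-gated sodium channels and so stops action potentials, in 5 samples, or vehicle in another 5. Treatment began at 19 days in vitro and lasted 24 h. Both groups were grown from trypsin-dissociated cells in neurobasal medium with B27 and differ by label in TTX alone. The comparison asks which transcripts differ after activity is silenced.

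Activins are dimers of the beta subunits that Inhba and Inhbb encode, and belong to the transforming growth factor beta family. A dimer binds a type II receptor (Acvr2a or Acvr2b), which then phosphorylates a type I receptor (Acvr1b, also called ALK4, or Acvr1c, also called ALK7), and the type I receptor activates Smad2 and Smad3, which enter the nucleus with Smad4. Follistatin, the product of Fst, binds activins outside the cell and keeps them from their receptors. In the rodent hippocampus Inhba is known as a gene that neuronal activity induces, and activin A is known to affect dendritic spines and neuronal survival.

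The count table gave 58785925 to 84921962 counts per TTX library and 52254261 to 77757538 per vehicle library. Levels are given in CPM, a count scaled to the size of its library. Markers of hippocampal excitatory and granule neurons (Slc17a7, Neurod6, Neurod2, Prox1 and Zbtb20) were present, at a summed 2079 to 2174 CPM with TTX and 1645 to 1797 CPM with vehicle, as were those of astrocytes and oligodendrocytes. Of these 5 genes Slc17a7, Neurod2 and Prox1 rose, where 35.4% of all genes tested were called higher. Their part in the results below was not tested. The 6 activity-regulated genes used to check the treatment (Fos, Arc, Npas4, Bdnf, Nr4a1 and Egr1) all fell, where 35.0% of all genes tested were called lower. Bdnf averaged 15.1 ± 0.823 CPM with TTX and 453 ± 37.1 CPM with vehicle (SD, n = 5 in each group). TTX replicate 5 stood apart from the other TTX libraries on the second principal component, which held 4.65% of the variance, and no call on the 9 genes changed without it. Whether replicates are separate cultures is not stated in the labels, so the p-values reflect only how these libraries vary, possibly for technical reasons alone.

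All 9 genes passed the filter on low counts. With TTX 4 of them rose (Inhbb, Acvr1c, Acvr2a and Fst), 3 fell (Inhba, Acvr1 and Fstl1) and 2 did not pass the test (Acvr1b and Acvr2b), by edgeR's quasi-likelihood test with a Benjamini-Hochberg adjusted p under 0.05. Of all 13088 genes tested, 70.5% were called, 35.4% higher and 35.0% lower, so 7 calls among 9 is close to the background and is no result about the family. The members differed more in the size of their changes. Tested against a change of 1.5-fold, only Inhba (lower) and Acvr1c (higher) of the 9 passed, where 13.8% of all genes did, 5.35% higher and 8.44% lower. In 5 members (Inhba, Acvr1, Acvr1c, Acvr2a and Fstl1) the CPM ranges of the groups did not overlap, which held for 57.3% of all genes. In bulk RNA such as this, fewer cells of a type and less RNA per cell cannot be told apart. The median log2 fold change was 0.12 over the 9 members and 0.01 over all genes tested.

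**Figure D1:**
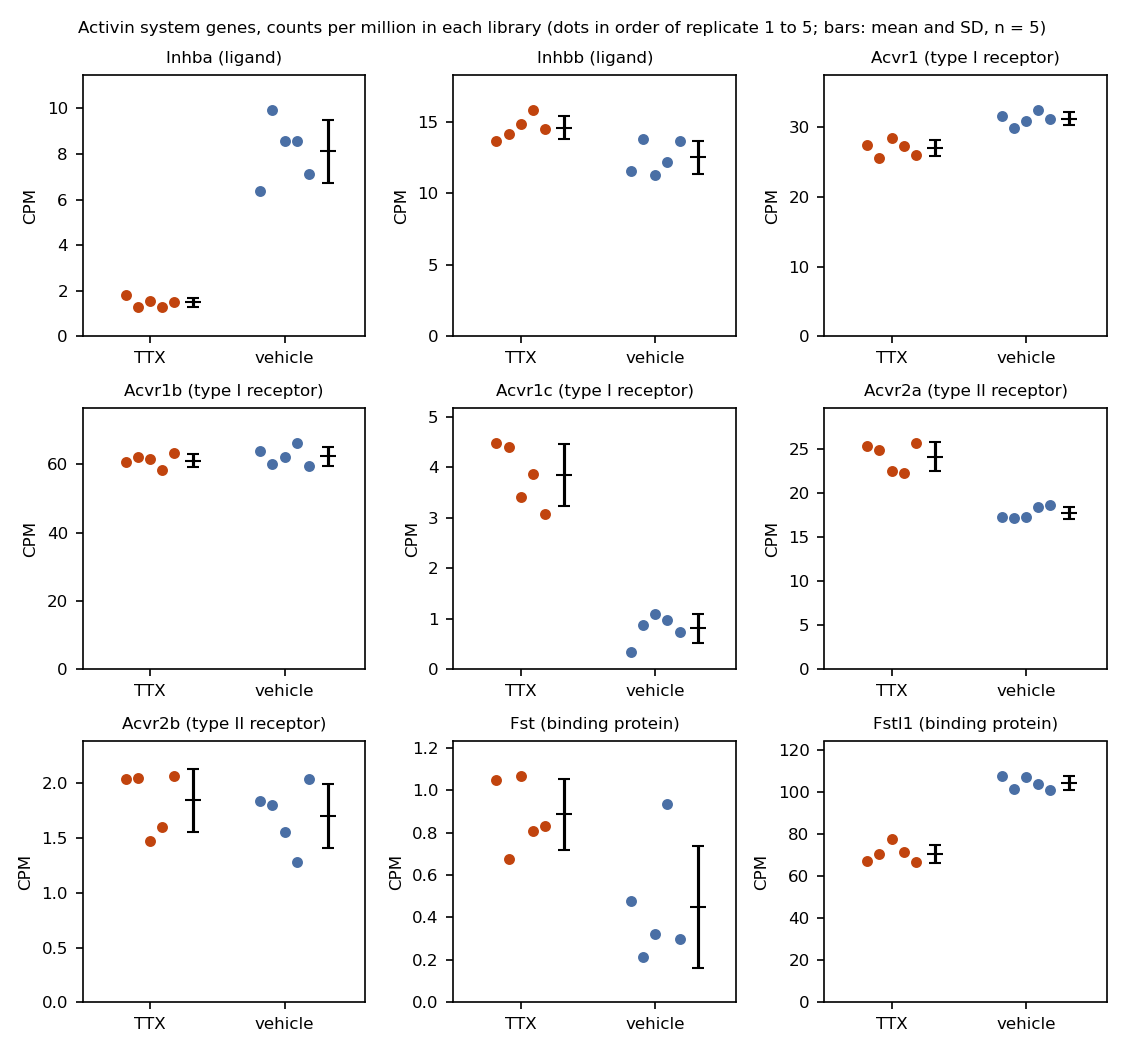
CPM (vertical axes from 0) of the 9 genes in each library, TTX in red and vehicle in blue, with dots for replicates 1 to 5 and black bars for mean and SD. The 5 TTX libraries lie below all vehicle libraries for Inhba (1.28 to 1.80 against 6.37 to 9.95 CPM) and above them for Acvr1c (3.07 to 4.49 against 0.345 to 1.10 CPM), whereas the groups overlap for Inhbb, Acvr1b, Acvr2b and Fst.

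Inhba, which encodes the subunit of activin A, had the largest change of the 9. It stood at 1.80, 1.31, 1.57, 1.28 and 1.51 CPM in TTX replicates 1 to 5, against 6.37, 9.95, 8.57, 8.57 and 7.14 CPM in vehicle replicates 1 to 5. Every TTX library lay far below the lowest vehicle library, replicate 1. The mean was 1.49 ± 0.212 CPM with TTX and 8.12 ± 1.39 CPM with vehicle (SD, n = 5 each), a 5.41-fold lower level (log2 fold change -2.43 ± 0.135 SE, edgeR adjusted p = 7.89e-10; adjusted p = 1.07e-08 against 1.5-fold). The values rest on 76 to 153 counts per TTX library and 333 to 608 per vehicle library. Of the genes called lower, 128 had a larger fall. In the authors' deposited table the log2 fold change of Inhba was -2.44.

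The promoter windows of Inhba and Acvr1c are shown because these are the members that changed past 1.5-fold, in opposite directions. Both are the 250 bases before the annotated start in RefSeq's rat assembly GRCr8, 5′ to 3′ on the gene's strand, with CG dinucleotides in capitals. The window of Inhba is chr17:53804509-53804758 on the minus strand, and that of Acvr1c is chr3:63301155-63301404 on the minus strand.
Inhba: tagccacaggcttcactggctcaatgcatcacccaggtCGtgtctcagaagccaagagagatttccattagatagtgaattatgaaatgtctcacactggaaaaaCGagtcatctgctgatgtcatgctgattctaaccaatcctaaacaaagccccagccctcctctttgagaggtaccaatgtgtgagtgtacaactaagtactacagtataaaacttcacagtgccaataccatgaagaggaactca
Acvr1c: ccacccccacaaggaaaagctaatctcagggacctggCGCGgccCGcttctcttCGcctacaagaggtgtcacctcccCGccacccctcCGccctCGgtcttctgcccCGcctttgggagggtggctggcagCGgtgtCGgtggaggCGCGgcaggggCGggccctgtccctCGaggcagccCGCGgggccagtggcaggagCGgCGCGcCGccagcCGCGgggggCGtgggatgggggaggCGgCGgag

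The Inhba window held 2 CG dinucleotides and 43.6% G and C, against 25 and 74.4% in the Acvr1c window and medians of 5 and 51.2% over 33469 rat windows of the same length. Windows were found for 7 of the 9 members. Besides Inhba, their G and C content was 49.2% in Acvr2a, 70.0% in Fstl1, 74.4% in Acvr1c, 76.8% in Acvr2b, 79.6% in Acvr1b and 86.8% in Inhbb, so Inhba had the lowest of the 7. The cyclic AMP response element TGACGTCA, read by CREB, was in none of these windows and in 1.59% of all rat windows, and the AP-1 site TGANTCA was in none and in 6.34% of all. The looser pattern TGANGTCA, which includes the first, was searched on both strands after the Inhba sequence had been seen. It was in Inhba alone of the 7 and in 8.88% of all windows. It begins 133 bases before the start and is shown in capitals with its neighbours, at chr17:53804634-53804641 in GRCr8 (minus strand).
Inhba, TGANGTCA match: gagtcatctgcTGATGTCAtgctgattcta
Counted from the 5′ end of the response element, it differs from TGACGTCA by C4T. RefSeq's Inhba gene reaches 6434 bases further upstream than this start, and the gene-level counts do not show which start was used.

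Inhbb, the subunit gene of activin B, moved the other way by a small amount. It stood at 13.7, 14.1, 14.8, 15.8 and 14.5 CPM in TTX replicates 1 to 5, against 11.6, 13.8, 11.3, 12.2 and 13.6 CPM in vehicle replicates 1 to 5. The groups overlapped, since vehicle replicate 2 was above TTX replicate 1. Inhbb rose 1.17-fold (log2 fold change 0.22 ± 0.0666 SE, edgeR adjusted p = 0.00865).

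Per transcript length, the 2 subunit genes changed places. Without length scaling they did not, since Inhbb was above Inhba in every library. Mean levels were 14.6 CPM for Inhbb and 1.49 CPM for Inhba with TTX, and 12.5 and 8.12 CPM with vehicle. The change of places thus rests on the lengths used for FPKM. In FPKM, the authors' length-scaled level, Inhba made up 17.0% ± 2.57 of the summed Inhba and Inhbb level with TTX and 56.4% ± 4.16 with vehicle (SD, n = 5 each). The sum itself was 5.53 ± 0.211 FPKM with TTX and 8.98 ± 1.06 FPKM with vehicle, and its ranges did not overlap. The ratio of Inhba to Inhbb within a library was 0.162 to 0.264 in TTX libraries and 1.05 to 1.52 in vehicle libraries on the FPKM scale. On counts it was 6.30-fold lower with TTX (difference of log2 ratios -2.66, two-sided exact permutation test over libraries, p = 0.00794, the smallest this design allows; p = 0.0106 adjusted over the 4 ratios tested). The direction held in 5 of 5 TTX libraries against every vehicle library. Inhba alone already separated the groups, so this test is not independent of its call above.

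**Figure D2:**
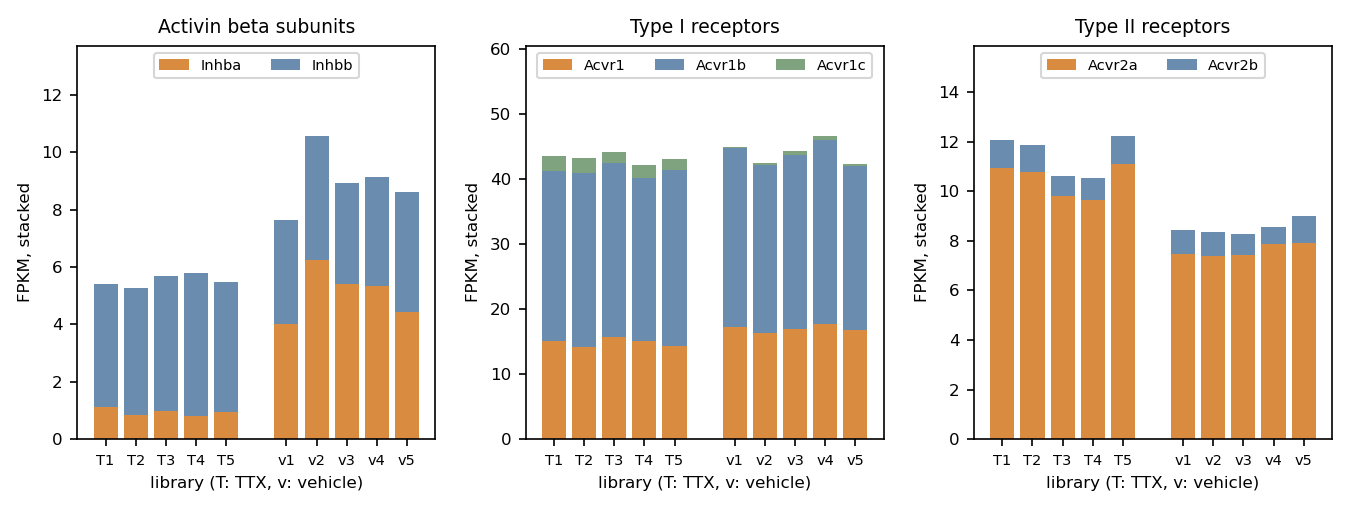
FPKM per library (vertical axes from 0, stacked) of the activin subunit genes, the type I and the type II receptor genes, with TTX libraries T1 to T5 left of vehicle libraries v1 to v5. Inhba makes up 17.0% of the subunit bars on average with TTX and 56.4% with vehicle, while the type I bars sum to 43.2 FPKM with TTX and 44.1 FPKM with vehicle and their thin part for Acvr1c is larger with TTX.

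Among type I receptors Acvr1c changed most. Its product ALK7 is known to bind activin B and activin AB as well as Nodal and other ligands of the family. It stood at 4.49, 4.40, 3.41, 3.87 and 3.07 CPM in TTX replicates 1 to 5, against 0.345, 0.884, 1.10, 0.981 and 0.746 CPM in vehicle replicates 1 to 5. No vehicle library came near the lowest TTX library, replicate 5. Acvr1c rose 4.69-fold (log2 fold change 2.23 ± 0.221 SE, edgeR adjusted p = 4.31e-07; adjusted p = 8.64e-06 against 1.5-fold), and 58 genes called higher had a larger rise. It remained a low-level gene, with 181 to 382 counts per TTX library and 18 to 75 per vehicle library. Vehicle replicate 1, with 18 counts, was the lowest, and without it the log2 fold change was 2.05.

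Acvr1b encodes ALK4, the main type I receptor of activin A, and did not pass the test. It lay between 58.2 and 63.2 CPM in TTX libraries and between 59.5 and 66.4 CPM in vehicle libraries, with a log2 fold change of -0.03 (95% interval -0.11 to 0.05, edgeR adjusted p = 0.489). That interval leaves room only for changes much smaller than those of Inhba or Acvr1c. Its interval in the rat gene table overlaps a long noncoding gene, LOC103692984, with 1177 counts over all libraries. The within-library ratio of Acvr1c to Acvr1b counts was 5.09-fold higher with TTX (difference of log2 ratios 2.35, exact permutation test, p = 0.00794; p = 0.0106 adjusted over the 4 ratios). Acvr1c alone already separated the groups, so this test is not independent of its call.

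Acvr1 encodes ALK2, which mainly signals for bone morphogenetic proteins through Smad1 and Smad5 and can also bind activin A. It stood at 27.4, 25.5, 28.4, 27.2 and 26.0 CPM in TTX replicates 1 to 5, against 31.5, 29.9, 30.9, 32.5 and 31.1 CPM in vehicle replicates 1 to 5. The groups did not overlap, although the highest TTX library, replicate 3, came close to vehicle replicate 2. Acvr1 fell by 0.21 on the log2 scale (SE 0.0393, edgeR adjusted p = 0.000229), a decrease to 0.863 of the vehicle level. In FPKM the type I genes summed to 43.2 ± 0.726 with TTX and 44.1 ± 1.74 with vehicle, with overlapping ranges. Acvr1c supplied 4.60% ± 0.742 of that sum with TTX and 0.935% ± 0.332 with vehicle, and Acvr1b supplied 61.0% ± 1.51 with TTX and 60.4% ± 0.657 with vehicle.

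Of the type II receptors, Acvr2a rose and Acvr2b did not pass. Acvr2a stood at 25.3, 24.8, 22.5, 22.3 and 25.7 CPM in TTX replicates 1 to 5, against 17.3, 17.2, 17.3, 18.4 and 18.6 CPM in vehicle replicates 1 to 5. The 5 vehicle libraries lay close together and all below the TTX libraries. Acvr2a rose 1.36-fold (log2 fold change 0.44 ± 0.0507 SE, edgeR adjusted p = 2.08e-06). In the rat gene table it overlaps Orc4, a gene of the DNA replication origin complex, which had a log2 fold change of -0.13 (edgeR adjusted p = 0.0128). No source used here says whether strand was used in counting, so reads of the shared stretch cannot be told apart.

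Acvr2b had 1.47 to 2.07 CPM in TTX libraries and 1.29 to 2.04 CPM in vehicle libraries, from 84 to 174 counts a library. Its log2 fold change was 0.12 (95% interval -0.22 to 0.45, edgeR adjusted p = 0.525), so a change of the size of that in Acvr2a lies inside its interval. Acvr2a was the main type II transcript in every library, at 91.3% ± 0.758 of the summed FPKM with TTX and 89.3% ± 1.67 with vehicle. The ratio of Acvr2a to Acvr2b counts differed by 0.32 on the log2 scale between TTX and vehicle (exact permutation test, p = 0.0635, also 0.0635 adjusted over the 4 ratios) and did not pass. With 1 library left out it passed only without vehicle replicate 4, in which Acvr2b was lowest. The difference was then 0.43 (exact permutation test, adjusted p = 0.0159).

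Fst, the gene of follistatin, had the lowest mean FPKM of the 9 in both groups. It stood at 1.05, 0.678, 1.07, 0.807 and 0.832 CPM in TTX replicates 1 to 5, against 0.479, 0.213, 0.323, 0.935 and 0.301 CPM in vehicle replicates 1 to 5. Vehicle replicate 4 lay within the TTX range, and the other 4 vehicle libraries lay below it. Fst rose 1.98-fold (log2 fold change 0.99 ± 0.333 SE, edgeR adjusted p = 0.0164), on 44 to 89 counts per TTX library and 13 to 61 per vehicle library. Against 1.5-fold its edgeR adjusted p was 0.268, which missed the threshold. Without vehicle replicate 4 its log2 fold change was 1.45 and it passed that test too (adjusted p = 0.00725). With any other library left out it missed that test (edgeR adjusted p of 0.225 to 0.546).

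With Inhba lower and Fst higher, the ratio of Inhba to Fst was lower with TTX. Other genes of activin antagonists are not part of this ratio. Fstl3 fell to 0.675 CPM with TTX, against 2.03 CPM with vehicle. Inha fell to 5.77 CPM with TTX, against 10.5 CPM with vehicle. On the FPKM scale the ratio was 2.45, 2.75, 2.09, 2.25 and 2.61 in TTX replicates 1 to 5, against 19.0, 69.6, 38.7, 13.1 and 35.1 in vehicle replicates 1 to 5. Vehicle libraries, with 13 to 61 Fst counts each, varied widely, and none came near the TTX values. On counts the ratio was 11.9-fold lower with TTX (difference of log2 ratios -3.57, exact permutation test, p = 0.00794; p = 0.0106 adjusted over the 4 ratios). This test too is not independent of the call of Inhba.

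Fstl1, a secreted glycoprotein with a follistatin-like domain that is known to bind bone morphogenetic proteins, had the highest mean FPKM of the 9 in both groups. It stood at 67.2, 70.3, 77.3, 71.4 and 66.7 CPM in TTX replicates 1 to 5, and between 100.7 and 107.7 CPM in vehicle libraries. All TTX libraries were lower, and both groups were tight. Fstl1 averaged 70.6 ± 4.26 CPM with TTX and 104.1 ± 3.20 CPM with vehicle (SD, n = 5 each), a decrease by 0.56 on the log2 scale, 1.48-fold lower (SE 0.0389, edgeR adjusted p = 8.87e-09). Of 9 markers of mesenchymal and vascular cells, 8 were tested, 4 fell (Dcn, Lum, Col1a1 and Pdgfrb) and none rose, and their summed level was 55.3 to 75.2 CPM with TTX and 82.8 to 101.1 CPM with vehicle. The endothelial marker Cldn5 was below the filter. Of all genes tested, 35.0% were called lower. The part of these cells in the fall of Fstl1 was not tested.

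**Figure D3:**
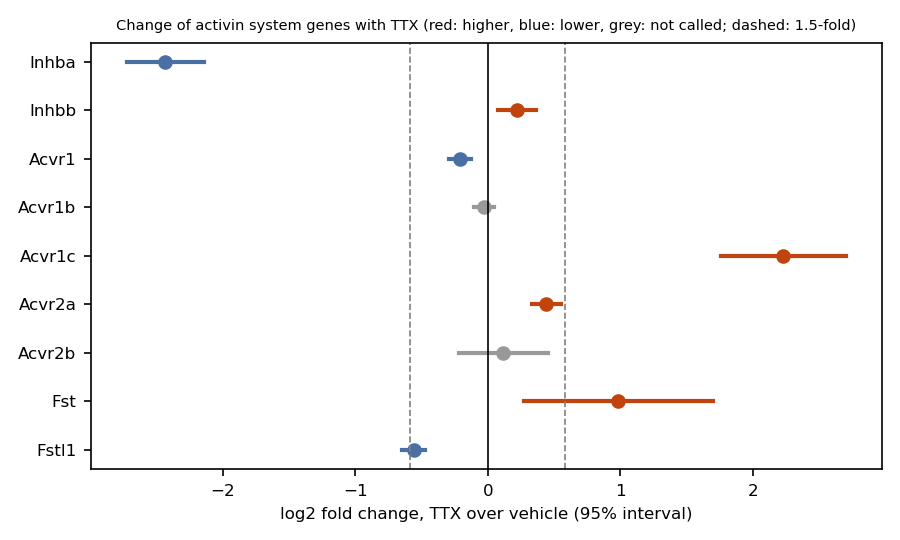
Log2 fold change of the 9 genes (TTX over vehicle, horizontal axis) with 95% intervals derived from the edgeR test, dashed lines at 1.5-fold in either direction. Inhba (-2.43) and Acvr1c (2.23) lie wholly beyond the dashed lines, Fst (0.99) has the widest interval, and those of Acvr1b and Acvr2b include 0.

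Other marker lists also held called genes, where 35.4% of all genes tested were called higher and 35.0% lower. Of 8 astrocyte markers 4 rose (Gfap, Gja1, Aldh1l1 and S100b) and 2 fell (Slc1a2 and Sox9). Their summed level was 14282 to 16085 CPM in TTX libraries and 9425 to 11072 CPM in vehicle libraries. Gfap was the largest part of that sum, at a mean of 9702 CPM with TTX and 5364 CPM with vehicle. Slc1a3 and Aqp4 did not pass, and Aqp4 varied from 272 to 1795 CPM over the TTX libraries. Of 8 oligodendrocyte markers 6 rose (among them Mbp, Mog, Cnp, Olig2 and Sox10) and none fell (1485 to 1659 CPM with TTX and 919 to 1190 CPM with vehicle). Of 8 neuron markers Rbfox3 and Map2 rose and Stmn2 fell (3388 to 3559 CPM with TTX and 3237 to 3534 CPM with vehicle). Of 8 microglial markers P2ry12 and Itgam rose (79.8 to 232.7 CPM with TTX and 80.7 to 127.0 CPM with vehicle), and all 7 markers of dividing cells (Mki67, Top2a, Ccnb1, Ccnb2, Cdk1, Rrm2 and Pcna) fell (152.6 to 168.8 CPM with TTX and 350.7 to 427.8 CPM with vehicle). Their part in the changes of the 9 genes was not tested.

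Per transcript length the order of mean levels with TTX was Fstl1 (30.6 FPKM), Acvr1b (26.4), Acvr1 (14.8), Acvr2a (10.4), Inhbb (4.59), Acvr1c (1.99), Acvr2b (1.00), Inhba (0.940) and Fst (0.391 FPKM). Only Acvr2b and Inhba, as neighbours in that order, had overlapping ranges. With vehicle the first 4 genes kept their places, at 44.7, 26.6, 17.0 and 7.62 FPKM, followed by Inhba (5.09), Inhbb (3.89), Acvr2b (0.915), Acvr1c (0.412) and Fst (0.195 FPKM). There the neighbours Inhba and Inhbb overlapped, as did Acvr1c and Fst. In both groups Acvr1b alone was above the sum of Inhba and Inhbb in every library.

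The wider pathway held 52 further genes in 5 lists. Of these 40 were tested, 6 were below the filter and 6 were not found by name among the counted genes. Of the 40, 12 rose, 15 fell and 13 did not pass, with a median log2 fold change of -0.00, and 7 passed the test against 1.5-fold, against 70.5% called and 13.8% past 1.5-fold among all genes. Of 8 other ligands of the Smad2 and Smad3 branch 4 were tested. Inha, the inhibin alpha subunit that pairs with a beta subunit to form the activin antagonist inhibin, fell to 5.77 ± 0.428 CPM with TTX, against 10.5 ± 0.473 CPM with vehicle (1.82-fold lower, edgeR adjusted p = 3.33e-08). Gdf11 and Mstn, ligands that also use activin type II receptors, rose by 0.38 and 0.67 on the log2 scale. Gdf1 rose 1.08-fold, and shares its place in the genome with Cers1, so its reads are uncertain. Inhbc and Inhbe, which encode further beta subunits, had no count in any TTX library, which allows up to 0.0510 CPM, and 0 to 9 and 5 to 9 counts per vehicle library.

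Secreted and membrane modulators showed the largest movements of these lists. Of 9 tested, 4 rose and 3 fell, where 35.4% of all genes were called higher and 35.0% lower. The test against 1.5-fold was passed by 5 of the 9, against 13.8% of all genes. Grem1, which encodes the bone morphogenetic protein antagonist gremlin, fell to 2.26 ± 0.189 CPM with TTX, against 18.3 ± 1.02 CPM with vehicle (8.09-fold lower, edgeR adjusted p = 1.04e-13). Fstl4, a follistatin-like gene, fell to 5.45 ± 0.727 CPM with TTX, against 33.3 ± 1.68 CPM with vehicle (6.07-fold lower, edgeR adjusted p = 8.98e-13). Fstl3, the closest relative of follistatin among activin-binding proteins, was 3.03-fold lower, at 0.675 CPM with TTX and 2.03 CPM with vehicle. Chrd and Nog, the antagonists chordin and noggin, rose 2.01-fold and 1.95-fold, and Fstl5 and Igsf1 rose 1.20-fold and 1.45-fold. Fst and Fstl5 thus rose while Fstl1, Fstl3 and Fstl4 fell. None of the 9 members stands in the authors' deposited table of 54 raised secreted factors, which lists Gdf11 and Igsf1 and was chosen on the same libraries.

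**Figure D4:**
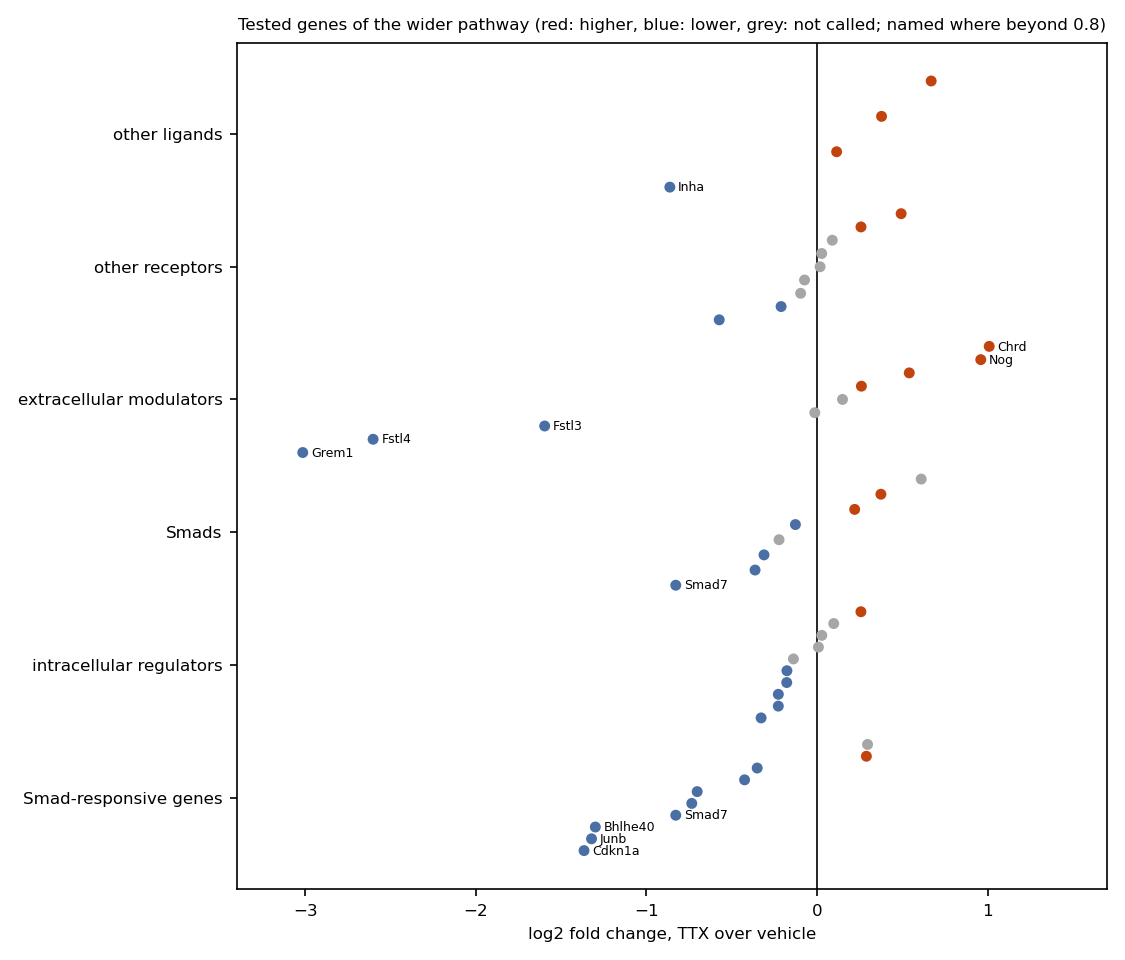
Log2 fold change (TTX over vehicle, horizontal axis) of the tested genes in 6 pathway lists, red where higher, blue where lower and grey where not called, with names beyond 0.8 in either direction. Grem1 (-3.02) and Fstl4 (-2.60) lie farthest out, and most Smad-responsive genes lie left of 0.

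Among the signal carriers, 2 of 8 Smad genes rose and 4 fell. Of all genes tested, 35.4% were called higher and 35.0% lower. Whether the calls among Smad genes, other receptors or intracellular regulators differ from these shares was not tested, so their counts are no result about these lists. Smad7, which inhibits the type I receptors and is itself induced by the pathway, fell to 12.9 ± 0.967 CPM with TTX, against 22.9 ± 1.02 CPM with vehicle (1.78-fold lower, edgeR adjusted p = 6.56e-09). Smad1, Smad3 and Smad2 fell by 0.36, 0.31 and 0.13 on the log2 scale, and the shared partner Smad4 rose by 0.37. Of 9 other receptors of the family 2 rose (Tgfbr1 and Bmpr1b), 2 fell (Bmpr2 and Acvrl1) and 5 did not pass, none past 1.5-fold. Of 10 tested intracellular regulators 1 rose and 5 fell, none past 1.5-fold, the ubiquitin ligase gene Smurf1 by 0.33, the phosphatase gene Ppm1a by 0.23 and Zfyve9, an anchor of Smad2 and Smad3, by 0.23.

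Of 10 tested genes known to respond to Smad2 and Smad3 in other cells, 8 fell, 1 (Ldlrad4) rose and 1 (Cdkn2b) did not pass. Of all genes tested, 35.0% were called lower and 35.4% higher. The test against 1.5-fold was passed by 4 of the 10, against 13.8% of all genes. The median log2 fold change of the 10 was -0.72, against 0.01 over all genes tested. Smad7, described above, is 1 of the 8. The smallest adjusted p-values were those of Junb, Cdkn1a and Bhlhe40, at 2.50-fold, 2.58-fold and 2.46-fold lower. Junb and Bhlhe40 are also known as genes that neuronal activity induces. Ccn2, Tgfbi and Pmepa1, which are known as matrix and feedback genes of the pathway, fell by 0.73, 0.42 and 0.35 on the log2 scale.

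Inhba also belongs to a set of survival genes that synaptic activity induces in mouse hippocampal neurons. Of the 8 members of that set considered here 7 fell, all 7 past 1.5-fold, and Gadd45g rose by 0.13 on the log2 scale. Inhba (-2.43) lay between Nr4a1 (-3.07), Npas4 (-9.80) and Serpinb2 (-6.38), which fell further and, but for Serpinb2, also stand among the 6 treatment checks, and Btg2 (-1.24), Atf3 (-0.90) and Gadd45b (-0.79). The share of all genes called lower was 35.0%, and 8.44% were lower past 1.5-fold.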

How the data were processed

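The authors deposited whole-number counts per gene and library, used here as deposited, with FPKM values per the file headers, used only to compare levels between genes. Where log2 fold changes or p-values (FDR) deposited by the authors are used, they are named as theirs. HISAT2 2.1.0, StringTie, DESeq2 and build rn6 are named in the submitters' processing notes, without roles. The counting tool and strand setting are not given in the sources used here. Identical repeat lines (254 of 14608) were collapsed. Of counts from 1 to 20, 57.0% are even, so each mate of a read pair may have been counted on its own.

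The test was edgeR 4.0.16 under R 4.3.3 (TMM, filterByExpr with a minimum count of 10 and total of 15, glmQLFit, glmQLFTest, and glmTreat against 1.5-fold), two-sided, adjusted over 13088 genes, and the method was tested on simulated data. CPM used TMM library sizes. Ratios added 0.5 to each count. Alternatives were other scalings, filters and tools (DESeq2 1.42.0, limma-voom 3.58.1), each library left out in turn and a replicate block. Promoter windows came from RefSeq (GRCr8).

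The members and gene lists were chosen with earlier results of these data known. In each pathway list the genes named were the called genes with the smallest adjusted p, up to 3 a list, and all called genes of lists with 5 or fewer calls; further pathway genes were chosen after their values were seen. Of the cell marker lists the called genes are named, but for 1 oligodendrocyte marker. Genes like Inhba or Fst in pattern were the 5 with the highest correlation among genes averaging at least 1 CPM. That marker and the value of 1 gene of the Smad-responsive list are not reported here.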

Additional observations from a re-analysis of the deposited data

How the results depend on the processing

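The direction and call of each of the 9 members held under RLE, upper-quartile or no scaling beyond library totals, without a filter or with a stricter one, by DESeq2, by limma-voom and with each library left out, except that Fst gave no value with the stricter filter (1 CPM in 5 libraries). Fst had the least margin (adjusted p of 0.000278 to 0.0427 with a library left out). Its log2 fold change ranged from 0.81 to 1.45 with a library left out, and at 1.45, without vehicle replicate 4, it passed the test against 1.5-fold, so 2 to 3 members passed that test. The log2 ratio of Acvr2a to Acvr2b ranged from 0.27 to 0.43 and passed only without vehicle replicate 4. No scaling moved the median of all genes by as much as 0.1. Same-numbered TTX and vehicle libraries did not deviate together (correlations of -0.0581 to 0.0110). The labels do not say whether the numbers pair them, and these correlations cannot decide it. With a replicate block 9135 genes and 7 members were called. Pairing by number in an exact sign-flip test left the log2 ratios at -2.66 (Inhba to Inhbb), -3.57 (Inhba to Fst) and 2.35 (Acvr1c to Acvr1b), each with an adjusted p of 0.0833, since 5 pairs are too few to pass in this test. Depth limits Fst, Acvr2b, Acvr1c and, in TTX libraries, Inhba most, at 13 to 382 counts a library.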

Other observations

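The genes whose log2 CPM followed Inhba most closely over the 10 libraries were Susd4, Sf1, Ciz1, Myo3b and Hip1r, with Pearson r of 0.995, 0.994, 0.994, 0.992 and 0.992 among 11834 genes. The 10 points share the split into TTX and vehicle libraries, and 2594 genes had r over 0.9, so a high r is common here. These genes fell less than Inhba, by 0.37, 0.23, 0.80, 1.07 and 0.57 on the log2 scale. For Fst the closest were Abcg2, Smim15, Ranbp17, Atp6v0e1 and Fam118a, with r of 0.949, 0.936, 0.921, 0.914 and 0.911, and 8 genes had r over 0.9. Abcg2, a membrane transporter, averaged 1.36 ± 0.177 CPM with TTX and 0.956 ± 0.166 CPM with vehicle (SD, n = 5 each).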
